A study of Homo sapiens with 4 samples.

Results

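Transcript levels of 10 genes of extracellular proteolysis, out of 14884 genes named on the array, were examined in RWP-1 cells, an established human pancreatic cancer line. They are MMP1, MMP10, MMP12 and MMP13, which are secreted matrix metalloproteases; MMP14 and MMP15, which are membrane-type matrix metalloproteases; the inhibitors TIMP1 and TIMP2; and the sheddases ADAM9 and ADAM10. Each gene was represented by the probe set whose platform annotation gives its symbol alone, and each of the 10 had exactly 1 such probe set. The genes were chosen from values of the same comparison, rGAL1 minus Ctrl, in which MMP1 had been seen to differ. The differences of the 10 genes are therefore given as a description, with a standard error (SE) moderated over all probe sets and no test.

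The cells were either without treatment (Ctrl, 2 arrays) or treated with rGAL1 (2 arrays), read as recombinant galectin-1, a lectin that binds galactose-containing glycans on cell surfaces and in the matrix. The labels give no dose, duration or vehicle, and name no separate cultures for the arrays of one group, so the spread between them may be technical. The labels of the array rGAL1 2 conflict: by title and source name it is a treated sample, by the entry for treatment an untreated one. Here it counts as rGAL1, and the difference of each of the 10 genes is also given without it and with it counted as Ctrl. With it left out or moved, rGAL1 1 is the only treated array. Between arrays, the SD of the differences was smallest for Ctrl 1 with rGAL1 2 (0.275) and largest for Ctrl 2 with rGAL1 2 (0.303). It was 0.285 between the rGAL1 arrays and 0.299 between the Ctrl arrays, so the arrays did not group by treatment on this measure. Which label of rGAL1 2 is right was not tested. Values are log2 RMA expression (a background-corrected, between-array normalized summary of the probes of a set), so 1 unit is a doubling. The median of all probe sets, 4.70 on this scale, serves as the dim level: below it a signal may be mostly background, because no detection call accompanies the values.

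Matrix metalloproteases are zinc-dependent proteases made as inactive precursors, which are activated by removal of a propeptide. MMP1 and MMP13 are collagenases that cut fibrillar collagen, MMP10 (stromelysin-2) cleaves proteoglycans and glycoproteins and can activate other MMP precursors, and MMP12 is an elastase best known from macrophages. Membrane-type MMPs act at the cell surface, TIMPs bind the active site of MMPs, and ADAM sheddases release the outer parts of membrane proteins such as growth factor precursors and Notch. In pancreatic cancer this system is known for remodelling of the dense stroma, with tumour cells and fibroblasts both contributing.

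Promoters of one secreted protease, one membrane-type protease and one inhibitor are shown because they differ in composition between the secreted gene and the others. RefSeq (GRCh38.p14) gave a promoter for 5 of the 10 genes, MMP10, MMP14, MMP15, TIMP1 and ADAM10; MMP1, MMP12, MMP13, TIMP2 and ADAM9 had no entry. Each sequence below holds the 250 bases before the annotated start, 5′ to 3′ on the gene's strand, from chr11:102780629-102780878 (minus strand) for MMP10, chr16:58025504-58025753 (plus strand) for MMP15 and chrX:47582186-47582435 (plus strand) for TIMP1. Capitals mark TGANTCA, the core bound by AP-1 (FOS and JUN family dimers), its variant TGAGTAA, and TATAA.
MMP10: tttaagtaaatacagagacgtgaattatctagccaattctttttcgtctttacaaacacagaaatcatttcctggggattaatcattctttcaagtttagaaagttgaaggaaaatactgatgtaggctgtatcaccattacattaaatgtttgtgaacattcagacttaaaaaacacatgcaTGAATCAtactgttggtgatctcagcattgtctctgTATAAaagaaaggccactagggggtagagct
MMP15: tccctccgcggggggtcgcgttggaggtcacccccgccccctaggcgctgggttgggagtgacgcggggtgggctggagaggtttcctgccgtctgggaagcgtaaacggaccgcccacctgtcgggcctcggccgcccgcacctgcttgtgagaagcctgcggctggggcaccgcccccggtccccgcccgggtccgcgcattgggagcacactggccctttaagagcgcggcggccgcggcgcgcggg
TIMP1: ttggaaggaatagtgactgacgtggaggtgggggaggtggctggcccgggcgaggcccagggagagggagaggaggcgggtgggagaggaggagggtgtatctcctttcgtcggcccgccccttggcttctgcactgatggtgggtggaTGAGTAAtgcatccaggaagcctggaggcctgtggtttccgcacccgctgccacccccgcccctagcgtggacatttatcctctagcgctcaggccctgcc
The MMP10 window holds TGAATCA at positions -67 to -61 and TATAA at -31 to -27, counted back from the start. The TIMP1 window holds TGAGTAA at -101 to -95, and the windows of MMP15, MMP14 and ADAM10 hold none of the 3 motifs. TGANTCA (which reads as itself on the other strand) is present in 6.57% of 35116 promoter windows of this length, TGAGTAA on either strand in 2.21%, and TATAA on the gene's strand in 13.6%; a match of TGANTCA never overlaps one of TGAGTAA in these sequences. G and C made up 34.4% of the MMP10 window, against 56.8% for MMP14, 64.8% for TIMP1, 68.4% for ADAM10 and 74.8% for MMP15, with a median of 58.0% over all windows. CG dinucleotides numbered 2 in MMP10, 7 in MMP14, 12 in TIMP1, 25 in ADAM10 and 31 in MMP15. A letter match does not show that a factor binds there.

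MMP1, interstitial collagenase, had the largest difference of the 10 genes. Its log2 level was 5.87 and 5.49 on the Ctrl arrays and 6.60 and 6.27 on the rGAL1 arrays. Both treated arrays lay above both controls, and all 4 values were above the dim level. The group means were 5.68 ± 0.26 and 6.44 ± 0.23 (SD, n = 2 each), a difference of 0.76 log2 units (SE 0.19), or 1.69-fold. The 4 differences between a treated and a control array ran from 0.40 to 1.11, while arrays of the same group differed by 0.37 (Ctrl) and 0.33 (rGAL1), in both groups with the higher value on the array numbered 1. The smallest between-group gap was thus close to the within-group gaps. Only 2 of the 14884 named genes had a larger positive difference, which placed MMP1 at rank 3, and the 2 had means below the dim level. Without rGAL1 2 the difference was 0.92, and with rGAL1 2 counted as Ctrl it was 0.73 (SE 0.31). In bulk RNA, more cells making a transcript and more transcript per cell cannot be told apart.

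MMP10, stromelysin-2, had a smaller positive difference and lay close to the dim level. It measured 4.69 and 4.82 in Ctrl and 5.08 and 5.02 in rGAL1. The groups did not overlap, and the lower Ctrl value fell just under the dim level. The means were 4.75 ± 0.088 and 5.05 ± 0.044 (SD, n = 2 each), and the difference was 0.29 (SE 0.11), or 1.22-fold, at rank 377 of the named genes. Arrays of one group were 0.12 apart in Ctrl and 0.063 in rGAL1. Without rGAL1 2 the difference was 0.32, and with that array as a control 0.24 (SE 0.17). RMA compresses differences of dim probe sets, so a fold near the dim level may be understated.

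MMP12, the macrophage-type elastase, and MMP13, collagenase-3, were below the dim level on every array. MMP12 measured 3.74 and 3.57 in Ctrl and 3.62 and 3.44 in rGAL1, and the groups overlapped. Its difference was -0.12 (SE 0.12), and it was -0.033 without rGAL1 2 and 0.037 with that array as a control. MMP13 measured 3.02 and 3.22 in Ctrl and 3.36 and 3.02 in rGAL1, so that the highest and the lowest value were both treated arrays. Its difference was 0.070 (SE 0.16), and it was 0.24 without rGAL1 2 and 0.28 with that array as a control; it was -0.10 without rGAL1 1 and -0.032 without Ctrl 1. At this brightness the arrays give no firm level for either gene.

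**Figure D1:**
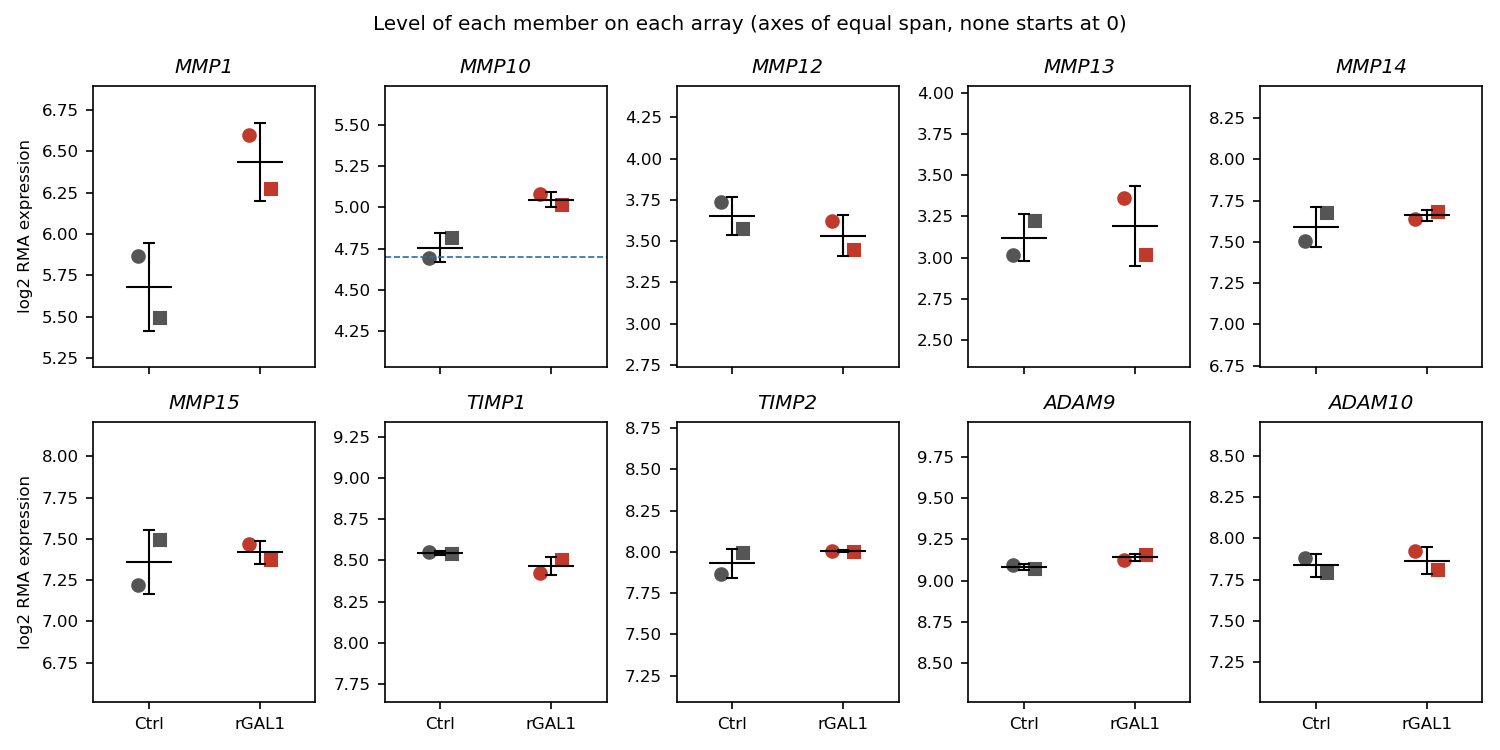
Log2 RMA expression of the 10 genes on each array, in panels of equal span: circles are arrays numbered 1, squares arrays numbered 2, grey Ctrl and red rGAL1, with black lines for the mean ± SD (n = 2) and a dashed blue line for the dim level where it falls within the panel. MMP1 (5.49 to 5.87 in Ctrl, 6.27 to 6.60 in rGAL1) shows the widest separation, followed by MMP10, and the 6 genes from MMP14 to ADAM10 stay nearly level.

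The membrane-type proteases were bright and nearly level. MMP14 (MT1-MMP), a collagenase of the cell surface that also activates the precursor of MMP2, measured 7.51 and 7.67 in Ctrl and 7.64 and 7.68 in rGAL1. MMP15 (MT2-MMP), its close relative, measured 7.22 and 7.50 in Ctrl and 7.47 and 7.37 in rGAL1. In both genes Ctrl 1 was the lowest of the 4 values and the groups overlapped, since Ctrl 2 lay above rGAL1 1. The difference was 0.072 (SE 0.11) for MMP14 and 0.059 (SE 0.14) for MMP15. Without rGAL1 2 these were 0.049 and 0.11, and with that array as a control 0.018 and 0.10. Without Ctrl 1 both turned negative, to -0.012 and -0.077.

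The inhibitors differed little, with opposite signs. TIMP1, an inhibitor of most secreted MMPs, measured 8.55 and 8.54 in Ctrl and 8.43 and 8.50 in rGAL1, and was the one gene of the 10 with both treated arrays below both controls. Its difference was -0.081 (SE 0.10; 95% interval -0.34 to 0.18). TIMP2, which takes part with MMP14 in the activation of the MMP2 precursor, measured 7.869 and 7.994 in Ctrl and 8.008 and 8.001 in rGAL1. Its treated arrays lay above both controls, but above Ctrl 2 by 0.014 and 0.0062 only, and the difference was 0.073 (SE 0.11; 95% interval -0.20 to 0.35). Without rGAL1 2 the differences were -0.12 for TIMP1 and 0.077 for TIMP2, and with that array as a control -0.11 and 0.053.

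The sheddases were likewise close to level. ADAM9 measured 9.09 and 9.07 in Ctrl and 9.13 and 9.16 in rGAL1, a narrow separation with the treated arrays higher. Its difference was 0.060 (SE 0.098; 95% interval -0.20 to 0.32), and it was 0.044 without rGAL1 2 and 0.019 with that array as a control. ADAM10, a main sheddase of Notch receptors and of several EGFR ligands, measured 7.88 and 7.79 in Ctrl and 7.92 and 7.81 in rGAL1. Its groups overlapped, and the difference was 0.030 (SE 0.11; 95% interval -0.25 to 0.31). It was 0.088 without rGAL1 2, 0.098 with that array as a control and negative without Ctrl 2 (-0.018) or without rGAL1 1 (-0.029). For all 6 genes from MMP14 to ADAM10 the difference was smaller than its SE. That SE is moderated towards the spread of all probe sets. The arrays of one group lay closer together than that in ADAM9 (SD 0.019 in Ctrl and 0.022 in rGAL1). The 95% intervals of the 6 genes all included 0. Their lowest lower limit was -0.34 (TIMP1) and their highest upper limit 0.41 (MMP15). For each gene, a change within its own interval thus could not be told from none with these arrays.

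**Figure D2:**
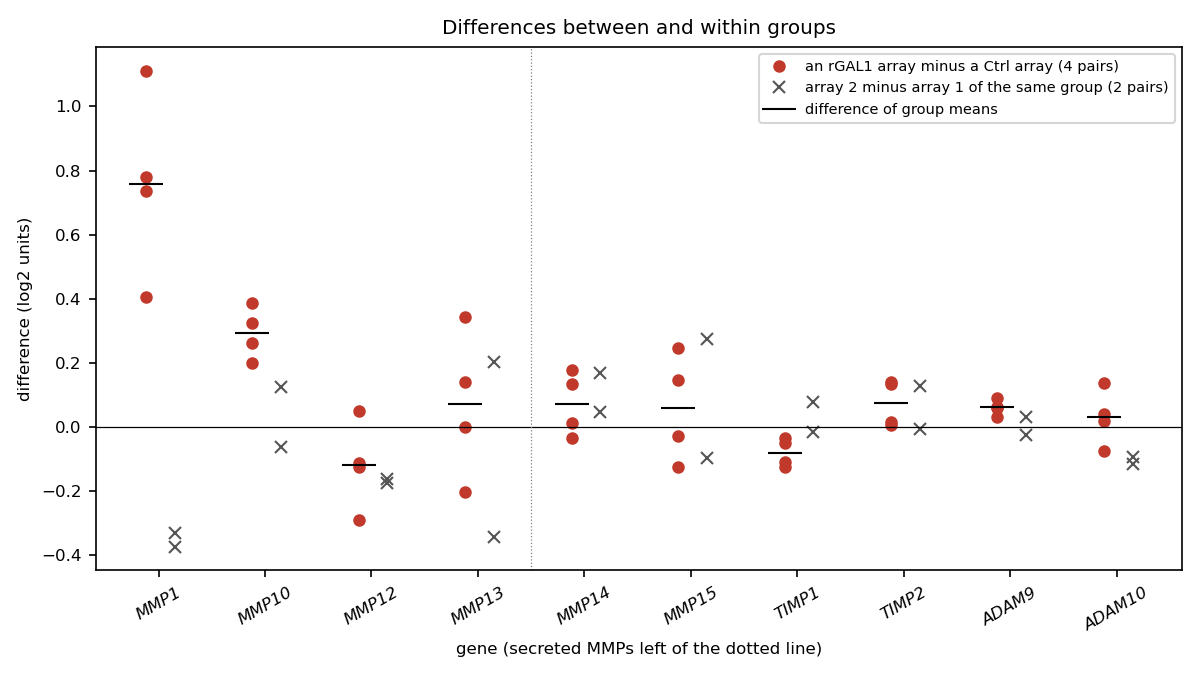
For each gene, red points are the 4 differences between an rGAL1 array and a Ctrl array, grey crosses the difference between the arrays of one group (array 2 minus array 1), and black bars the difference of group means, all in log2 units. All 4 points of MMP1 (0.40 to 1.11) and of MMP10 (0.20 to 0.39) lie above 0, while those of the other genes lie near or on both sides of 0.

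Set side by side, the secreted proteases spanned a wider range than the other genes. Its ends were MMP1, already seen to differ when the genes were chosen, and MMP12, which was dim. Next below MMP1 was MMP10, at 0.29. The 4 secreted genes ran from -0.12 to 0.76, a span of 0.88 log2 units with a median of 0.18, and the 6 other genes ran from -0.081 to 0.073, a span of 0.15 with a median of 0.060. Over all named genes the median was 0.0056. The gap of 0.12 between the group medians rested on MMP1: leaving that gene out of the secreted group gave a gap of 0.010. Without rGAL1 1 the gap was 0.040, without rGAL1 2 it was 0.22, and with rGAL1 2 counted as Ctrl it was 0.22. The 2 secreted genes above the dim level, MMP1 and MMP10, had a median of 0.53.

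In all, 8 of the 10 genes had a higher mean in rGAL1, as did 51.7% of all named genes. Without Ctrl 1 the count was 5 of 10. Both treated arrays lay above both controls in 4 genes (MMP1, MMP10, TIMP2 and ADAM9), against 20.2% of named genes, and below both in 1 gene (TIMP1), against 17.0%. Nothing is read from these counts, since the same comparison was used in choosing the genes. Without rGAL1 2, the remaining treated array lay above both controls in 6 of the 10 genes, against 36.6% of named genes, and below both in 1, against 31.7%. Across all 53617 probe sets, limma called 0 at an adjusted p under 0.05 (0% of those tested), with a smallest adjusted p of 0.919. At an unadjusted p under 0.05 it found 2807 probe sets, or 5.24%.

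MMP1, MMP10, MMP12 and MMP13 lie in one cluster of 9 MMP genes on chromosome 11, in the order MMP7, MMP20, MMP27, MMP8, MMP10, MMP1, MMP3, MMP12 and MMP13 by RefSeq. Of these, 7 had a named probe set; MMP7 and MMP3 are not analysed here. MMP10 and MMP1 are adjacent MMP genes in this order, and in these 2 of the 7 both treated arrays lay above both controls, against 20.2% of named genes; nothing is read from this, as both genes belong to the chosen set. The other 5 had means below the dim level in both groups. MMP8, a collagenase of neutrophils and the neighbour of MMP10, measured 4.09 and 3.69 in Ctrl and 3.66 and 3.84 in rGAL1, a difference of -0.13 (SE 0.17). MMP27 differed by 0.025 (SE 0.15) and MMP20, an enamel protease, by 0.014 (SE 0.22), with the treated arrays of each on either side of both controls. Promoter windows were at hand for 5 genes of the cluster, and TGANTCA was found in those of MMP7, MMP20 and MMP10 and not in those of MMP8 and MMP27.

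**Figure D3:**
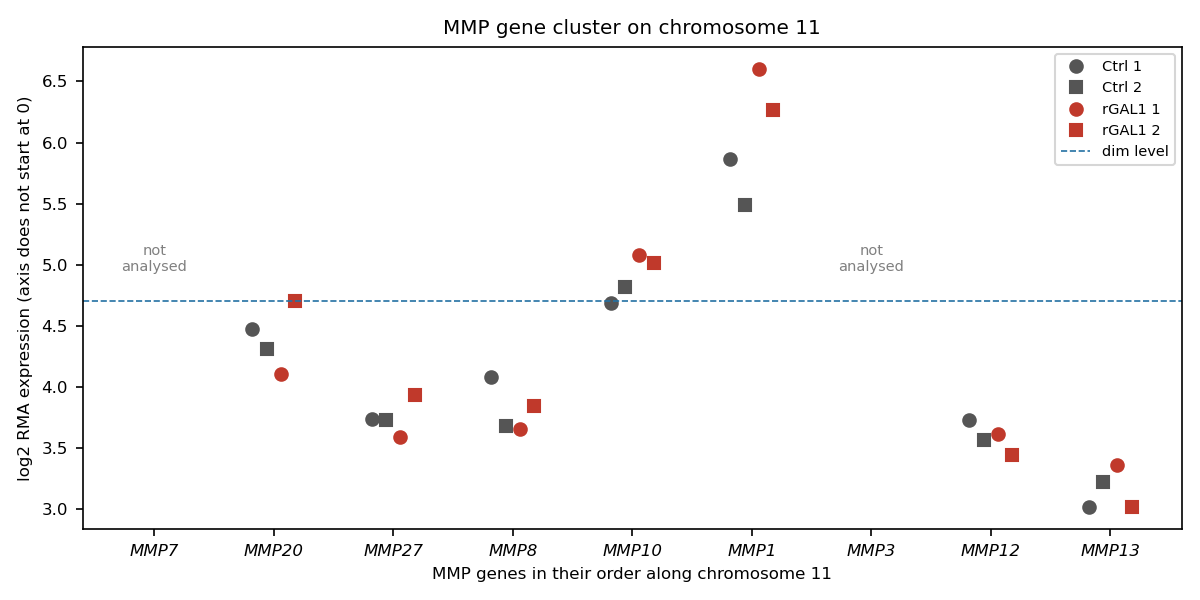
Log2 RMA expression on each array for the 7 analysed genes of the chromosome 11 MMP cluster, set in gene order with equal spacing, with grey Ctrl and red rGAL1 symbols and the dim level as a dashed line. MMP10 and MMP1, next to each other, show both treated arrays above both controls, and the other 5 genes have means below the dim level and overlapping groups.

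Beyond the 10 genes, 66 of 104 genes on 8 lists of the same system had a named probe set; the rest, which include MMP2, MMP3, MMP7, MMP9, PLAU, PLAUR and the whole list of 19 ADAMTS proteases, are not analysed here. The 66 include 16 transcription factor genes, 13 partners of sheddases and the plasminogen gene PLG. Of the 66, 33 had higher and 33 lower means in rGAL1, and the median difference was 0.0015. Of the 36 metalloproteases and inhibitors among them, 20 had higher and 16 lower means. In these 36 the groups did not overlap in 6 genes with higher values, against 20.2% of named genes, and in 5 with lower values, against 17.0%. The test across all probe sets called 0 of the 66 (limma, adjusted p under 0.05), and 1 of the 66 had an unadjusted p under 0.05, against 2.98% of named genes. The groups did not overlap in 12 of the 66 genes with higher values, against 20.2% of named genes, and in 10 with lower values, against 17.0%. That 1 gene was TIMP4, an inhibitor related to TIMP1 and TIMP2. It measured 3.93 and 3.93 in Ctrl and 4.22 and 4.27 in rGAL1, below the dim level throughout, with a difference of 0.31 (SE 0.098; unadjusted p = 0.0270, adjusted p = 0.919, limma). The difference was 0.29 without rGAL1 2 and 0.17 with that array as a control, and its unadjusted p was not under 0.05 without any 1 of the 4 arrays.

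By role, the 8 other secreted MMPs analysed had a median difference of 0.015 and ranged from -0.13 (MMP8) to 0.11 (MMP11), and 5 of them were dim in both groups. The 6 genes on the list of other membrane-anchored MMPs had a median of -0.065, with 5 lower means, of which that of MMP23A differed by -0.0017 only. In 2 of those 6, MMP24 and MMP25, both treated arrays lay below both controls, against 17.0% of named genes, but further probe sets of these genes went the other way: MMP24 gave -0.15 in its brightest set and 0.10 in the other, and MMP25 gave -0.11, 0.054 and 0.13. The other inhibitors had a median of 0.082 over 5 genes; RECK, a membrane-anchored inhibitor, differed by -0.13 (SE 0.15). TIMP3, which inhibits ADAM17 as well as MMPs, differed by 0.082 (SE 0.18). The 17 other ADAM genes had a median of 0.0063 and ranged from -0.39 (ADAM20) to 0.25 (ADAM21). Of the 17, 10 were dim in both groups, ADAM20 and ADAM21 among them. ADAM17, the main sheddase of TNF and many EGFR ligands, measured 7.99 and 8.06 in Ctrl and 8.19 and 8.06 in rGAL1, a difference of 0.10 (SE 0.11; 95% interval -0.18 to 0.38).

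Genes that serve the sheddases and membrane-type MMPs gave no member at an unadjusted p under 0.05 (limma, all 4 arrays as labelled by title). The list held the tetraspanins that escort ADAM10, the iRhom proteins RHBDF1 and RHBDF2 and their partner FRMD8, which carry ADAM17 to the surface, and the furin-type convertases that remove propeptides. All 13 were above the dim level, 10 had lower means in rGAL1 and 3 higher, where 51.7% of named genes had higher means, and the median difference was -0.063. In 4 of the 13 both treated arrays lay below both controls, against 17.0% of named genes, and in 0 of them above, against 20.2%. FRMD8 had the largest difference of the list, -0.23 (SE 0.17), with 6.47 and 6.51 in Ctrl and 6.05 and 6.46 in rGAL1. FURIN, the best known convertase, belonged to this list and differed by -0.091 (SE 0.11).

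**Figure D4:**
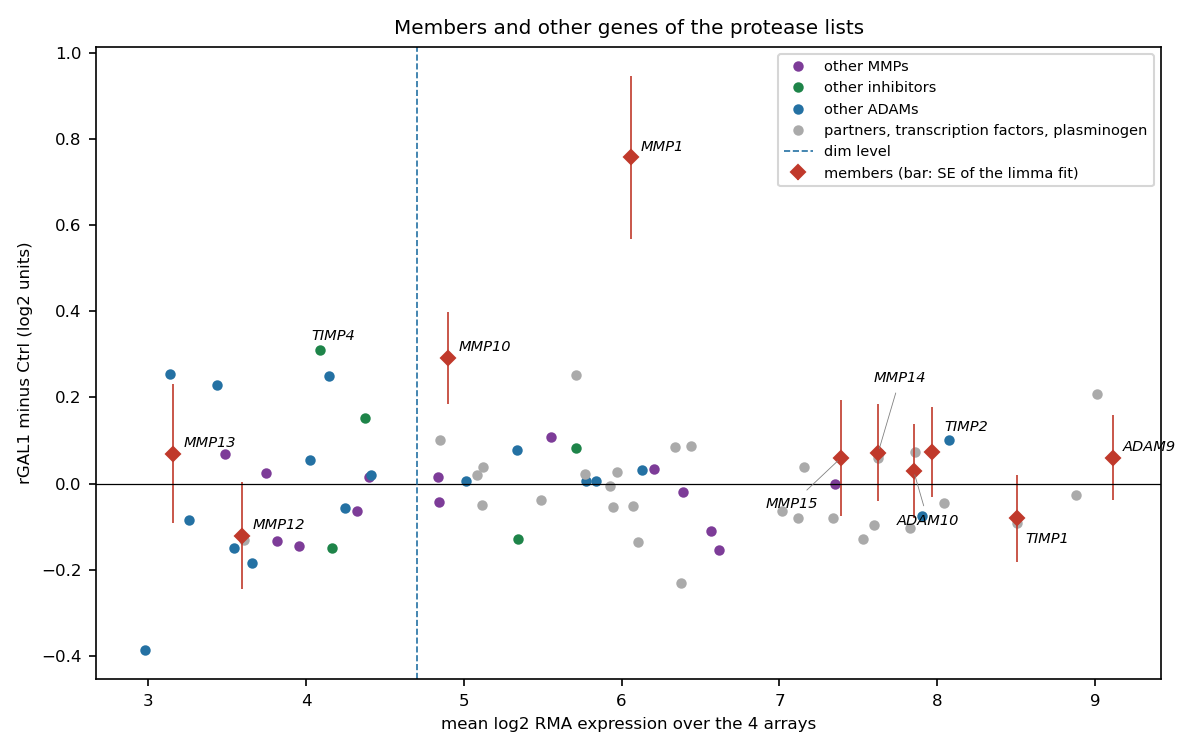
Mean log2 RMA expression over the 4 arrays (horizontal axis) against rGAL1 minus Ctrl in log2 units (vertical axis) for the 10 genes (red diamonds with the SE of the fit) and the 66 other genes of the lists (points coloured by role); the dashed line is the dim level. MMP1 at 0.76 lies apart from all others, MMP10 (0.29) and the dim TIMP4 (0.31) follow on the higher side, and the bright genes lie within about 0.25 of 0.

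The line was checked against markers of its own and other cell types. All 7 named genes of the epithelial and ductal list were above the dim level, and its median level was 9.39 to 9.45 in Ctrl and 9.44 on both rGAL1 arrays. In that list 5 of the 7 means were lower in rGAL1 and 2 higher. Both treated arrays lay below both controls in 4 genes, against 17.0% of named genes, and above both in 1 (EPCAM), against 20.2%. The keratin gene KRT7 differed by -0.38 (SE 0.17), with 5.37 and 5.36 in Ctrl and 4.76 and 5.20 in rGAL1. The claudin gene CLDN4 differed by -0.19 (SE 0.11). The 2 higher genes were EPCAM (0.089, SE 0.097) and KRT19 (0.022, SE 0.099). Of the fibroblast list only DCN, LUM and THY1 of 10 genes are analysed here. DCN and LUM, matrix proteoglycans of fibroblasts, were below the dim level on every array, whereas THY1, which other cells also express, measured 5.45 and 5.75 in Ctrl and 5.76 and 5.45 in rGAL1. The median level of the 3 genes was 3.34 to 3.39 in Ctrl and 3.22 to 3.32 in rGAL1. Of 5 endothelial markers, 3 were above the dim level in both groups, and the median level was 4.85 to 4.86 in Ctrl and 4.66 to 5.01 in rGAL1.

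Of 5 leukocyte markers, CD68, CD14 and CSF1R were above the dim level in both groups and CD163 and LYZ below it, and the median level was 4.89 to 4.99 in Ctrl and 4.99 to 5.09 in rGAL1. Both treated arrays lay above both controls in 3 of the 5 (CD68, CD14 and CD163), against 20.2% of named genes. CD68, a lysosomal protein of macrophages and other cells, measured 7.71 and 7.88 in Ctrl and 8.13 and 8.23 in rGAL1, a difference of 0.39 (SE 0.12; unadjusted p = 0.0222, adjusted p = 0.919, limma). The CD68 difference was 0.34 without rGAL1 2 and 0.19 with that array as a control. CD14 differed by 0.10 (SE 0.11), CSF1R by 0.076 (SE 0.13) and CD163 by 0.092 (SE 0.10). LYZ went the other way, by -0.11 (SE 0.11) in its brightest probe set and -0.16 (SE 0.13) in the other. The sample titles name the RWP-1 line only. The source of the MMP1 and CD68 differences was not tested.

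**Figure D5:**
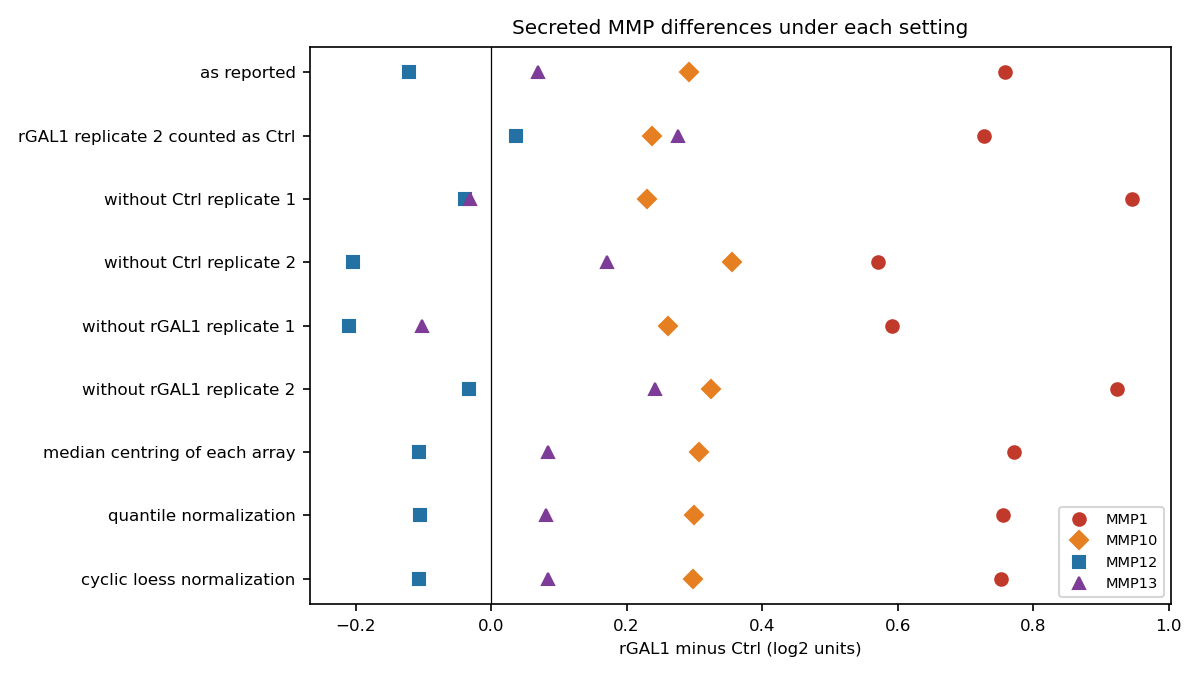
Differences, rGAL1 minus Ctrl in log2 units, of the 4 secreted proteases as reported and under each other choice of arrays, labels or scaling. MMP1 (0.57 to 0.95) and MMP10 (0.23 to 0.35) stay to the right of 0 in every setting shown, while MMP12 and MMP13 fall on both sides. For MMP1 and MMP10 no choice of arrays or labels shown could turn the sign, since both treated arrays lie above both controls and rGAL1 1 is highest.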

How the data were processed

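Total RNA from RWP-1 cells was labelled with a whole-transcript kit and hybridised to 4 single-channel arrays. The deposited values are log2 expression per probe set. The submitters' processing notes list RMA and limma; versions and options were not given in the sources used here. Groups and numbers came from the sample titles. Of 53617 probe sets, 16098 had 1 symbol and 37519 none; they covered 14884 genes, and a gene with several sets was represented by the brightest. The 10 genes were matched to RefSeq by Entrez ID, and no symbol changed. The whole table was fitted in R 4.3.3 using lmFit and eBayes of limma 3.58.1 (no block, 2 residual and 2.75 prior degrees of freedom), with two-sided p-values, Benjamini-Hochberg adjustment over all probe sets and 95% intervals from the moderated fit. The fit was tested on simulated data. Precision is limited by the number of arrays, with a median SE of 0.13 over all differences.

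The genes and lists were chosen with earlier results of these data known. Named beside the 10 genes were, per list, up to 2 genes a direction with an unadjusted p under 0.05 and groups that did not overlap, which gave TIMP4. Other genes were named after their values were seen or for their role. Alternatives were each array left out, rGAL1 2 as Ctrl, a replicate block, other scalings, other variance priors, filters and summaries.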

Additional observations from a re-analysis of the deposited data

How the results depend on the processing

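Each of the 13 alternative limma fits called 0 probe sets at an adjusted p under 0.05 (0 to 0 without 1 array, and 0 with the replicate block). At an unadjusted p under 0.05 the count was 2807 of 53617 probe sets. It was 1641 among those brighter than the dim level, which is the median of all, and 1006 among the 16098 with a symbol. Each filter tests fewer probe sets and refits the variance prior, so a lower count is not a lower share. In the fit of the whole table, 444 of 14884 named genes had such a p (limma). The difference of MMP1 ranged from 0.57 to 0.95 without 1 array and that of MMP10 from 0.23 to 0.35. Both stayed positive under all 10 alternatives tried on them, but most of these could not turn the sign. In both genes all 4 differences between a treated and a control array were positive, and rGAL1 1 was the highest array. Leaving out 1 array or counting rGAL1 2 as Ctrl could therefore only give a positive value. The replicate block returned the same difference. Of the 10 genes, 8 had higher means, and 5 to 8 without 1 array; leaving out 1 array turned the sign of 4 (MMP13, MMP14, MMP15 and ADAM10), and scaling turned the sign of 0. The gap between the medians of secreted and other genes, 0.12, was 0.040 to 0.22 without 1 array and 0.22 with rGAL1 2 as Ctrl. It was 0.010 without MMP1, 0.47 over genes above the dim level and 0.21 with means, by construction of those settings from other genes or another summary. Each gene had 1 probe set, so averaging probe sets changed nothing. Among the 66 other genes, counted under these settings after seeing the data, the number at an unadjusted p under 0.05 was 1, and it was 0 to 2 without 1 array, 2 with rGAL1 2 as Ctrl and 0 with the replicate block; the cause was not tested. Across probe sets, arrays that share a number deviated from their groups with a correlation of -0.048, so the numbers were not taken to pair the arrays. Without 1 array, a group is left with a lone array that is assumed to vary like the others, and signals near the dim level limit what MMP10, MMP12 and MMP13 can show.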

Other observations

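WTAPP1, a transcribed pseudogene, overlaps MMP1 in RefSeq and was looked up for that reason. It measured 4.15 and 3.92 in Ctrl and 4.26 and 4.33 in rGAL1, below the dim level on every array, with both treated arrays above both controls. The difference was 0.26 (SE 0.13), and it was 0.14 to 0.37 without 1 array and 0.12 with rGAL1 2 counted as Ctrl. Whether the probes of either gene also read the other's transcripts was not tested.

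Among 16 analysed transcription factor genes linked to MMP promoters, all above the dim level, 10 had higher means in rGAL1 and the median difference was 0.049. Both treated arrays lay above both controls in 6 and below both in 1, against 20.2% and 17.0% of named genes, and none had an unadjusted p under 0.05 (limma). FOSL1 and ETV5 were singled out after their values were seen. FOSL1, an AP-1 subunit, measured 8.98 and 8.84 in Ctrl and 9.15 and 9.09 in rGAL1, a difference of 0.21 (SE 0.11), with 0.14 to 0.28 without 1 array and 0.18 with rGAL1 2 counted as Ctrl. ETV5, an ETS factor, measured 5.63 and 5.54 in Ctrl and 5.82 and 5.85 in rGAL1, a difference of 0.25 (SE 0.10), with 0.21 to 0.30 without 1 array and 0.15 with rGAL1 2 counted as Ctrl. ETV4, also an ETS factor, was the 1 gene with both treated arrays below both controls. It measured 7.59 and 7.60 in Ctrl and 7.50 and 7.42 in rGAL1, a difference of -0.13 (SE 0.10). Of the other ETS genes, ETS1 (-0.079) was lower and ETS2 (0.073) and ETV1 (0.10) were higher. The AP-1 genes FOS (-0.0065), JUN (0.039), JUNB (-0.027) and JUND (-0.045) lay near 0. FOSL2 (0.086, SE 0.12) and FOSB (0.084, SE 0.10) were higher. The other probe set of FOSB gave 0.16 (SE 0.15).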
